A study of Drosophila melanogaster with 9 samples.

Results

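*Drosophila* S2 cells, an embryonic line with hemocyte (blood cell) character, were transfected with 1 µg of double-stranded RNA (dsRNA) against Su(var)3-9 or, as the control, against GFP, and total RNA was sequenced 3 days later. The comparison uses 3 libraries labelled Su(var)3-9 RNAi and 3 control libraries, 6 of the 9 libraries of the series. Both groups come from the same wild-type line and differ by the label only in the dsRNA received. Of the 15168 gene identifiers in the table, the 14088 that start with CG were kept, which are protein-coding genes for the most part. Each library was rescaled to a total of 1000000 over them, and the 8126 genes with a mean of at least 1 over the 6 libraries were tested. An annotation of a later release calls 7968 of these protein coding and 41 something else, and 117 could not be matched. Values below are TPM (a length-corrected transcript abundance) on this rescaled total.

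Su(var)3-9 is a histone methyltransferase that places methyl groups on lysine 9 of histone H3, the mark that HP1a binds in pericentromeric heterochromatin. It is best known from position-effect variegation, where its loss relieves the silencing of genes moved next to heterochromatin. The question here was which functions of protein-coding genes differ between cells that received the Su(var)3-9 dsRNA and cells that received the GFP dsRNA. RNA interference acts on the mRNA of the target, so the target gene is the first check of the labels.

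The targeted gene stood at a higher level in the RNAi libraries than in the controls. CG6476, the identifier of Su(var)3-9, which shares its locus with the translation factor gene eIF2gamma, stood at 240.3, 219 and 240.2 in control replicates 1 to 3 and at 3923, 2483 and 3251 in Su(var)3-9 RNAi replicates 1 to 3. All 3 labelled libraries were far above every control, by 3.76 on the log2 scale (SE 0.17, limma adjusted p = 5.26e-05). Reads of the cell's own mRNA and reads of the transfected dsRNA cannot be told apart in these values, nor can they show whether the label of a library is right. The group is therefore called by its label throughout. The study examined the protein by immunoblot, which is not part of these data.

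The transcript table placed the whole rise in 1 transcript. CG6476-RA was listed at 20.1, 17.7 and 21.5 in the controls and at 3716, 2275 and 3037 in the labelled libraries, a log2 fold change of 7.15 (SE 0.19, limma adjusted p = 3.48e-05). Its share of the values of the gene's transcripts went from between 8.11% and 8.94% in the controls to between 91.6% and 94.7% in the labelled libraries. CG6476-RB, which held the rest, was listed at 220.2, 200.8 and 219 in the controls and at 208, 208 and 214 in the labelled libraries, with a log2 fold change of -0.02 (SE 0.09). CG6476-RC was at 0 in all 6 libraries. The transcripts overlap, so the split of reads between them is an estimate.

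**Figure D1:**
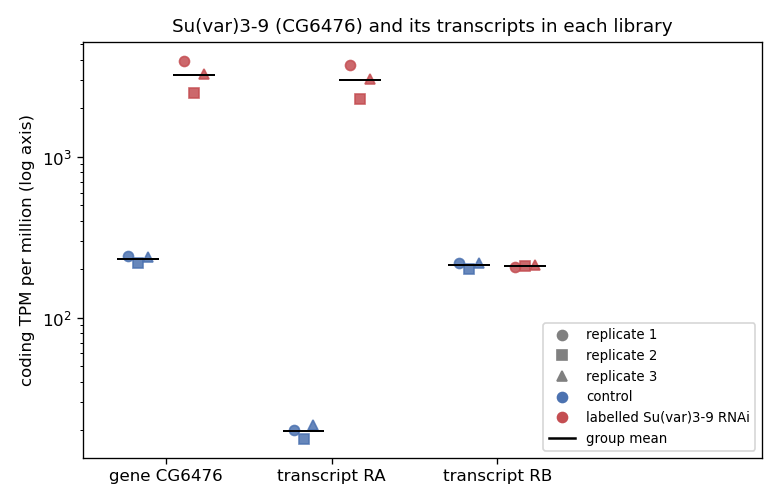
Level of CG6476, the identifier of Su(var)3-9, and of its transcripts RA and RB in each library, on a log axis. Each replicate has a mark, and a line gives the group mean. The gene and RA are higher in all 3 labelled libraries (gene 2483 to 3923 against 219 to 240.3), while RB lies between 200.8 and 220.2 in all 6.

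TPM keep no record of sequencing depth, so the depth of each library is unknown and no counting error is given. CG genes took 15.3%, 10.9% and 15.1% of the deposited TPM in control replicates 1 to 3. They took 9.70%, 10.5% and 14.2% in Su(var)3-9 RNAi replicates 1 to 3. The part of this share in the results was not tested. Replicate 3 stood partly apart in both groups. Over the log2 values of the tested genes, the correlation of Su(var)3-9 RNAi replicate 3 with the other libraries was 0.946 to 0.965. That of control replicate 3 was 0.946 to 0.961. Between the remaining libraries it was 0.955 to 0.981, so the ranges overlapped. The 0.955 was that of control replicate 2 with Su(var)3-9 RNAi replicate 1. The pair with the lowest correlation of all was the 2 replicate 3 libraries. Su(var)3-9 RNAi replicate 3 listed 196 tested genes at 0, against 147 and 132 in replicates 1 and 2 and 79 to 97 in the controls. The fit was made with all 6 libraries and with the 5 that remain without Su(var)3-9 RNAi replicate 3. Counts and list medians are given for both, and a single gene is given for all 6 libraries unless the fit without replicate 3 is named with it or in its paragraph. Leaving out control replicate 3 from the 6 libraries gave 7 called genes. Hemocyte genes were seen in all 6 libraries, at levels that differed widely. Of 19 such genes 14 were tested. Nplp2 stood at 1793 to 2909, the scavenger receptor gene crq at 83.9 to 114 and the GATA factor gene srp at 32.2 to 72.4. Lower were He (4.16 to 15.4), Hml (4.17 to 11.4) and Ppn (3.00 to 5.14). NimC1 did not exceed 1.47, and NimC2 and lz did not exceed 0.190. Of the 14, 2 lay below all controls in all labelled libraries and 1 above, where 9.94% and 6.49% of all tested genes did. Among markers of other cell types, 6 were at 0 in every library (Yp1, Yp2 and Lsp2 of fat body, Mlc1 of muscle, Rdl and para of neurons), while elav reached 7.75 and the germline genes bgcn, bam and osk reached 19.1, 10.1 and 7.26. The labels do not say whether replicates were separate cultures, so p-values measure only the spread between these libraries.

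With 6 libraries, few genes passed the test, and almost all of them fell. At an adjusted p-value under 0.05, 12 of the 8126 genes were called (0.148%), CG6476 higher (0.0123%) and 11 lower (0.135%). The 5 heat shock genes Hsp70Ab, Hsp70Ba, Hsp70Bb, Hsp68 and Hsp26, the poly(A)-binding protein gene pAbp, the RNA-binding protein gene Syp and Drat, which encodes a protein with an alcohol dehydrogenase domain, made up 8 of the 11. None of the 12 overlapped between the groups. The median log2 fold change over all tested genes was -0.04, and 851 genes had an unadjusted p under 0.05, 228 higher (2.81%) and 623 lower (7.67%). Groups did not overlap for 527 genes above all controls (6.49%) and 808 below (9.94%).

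Heat shock proteins are chaperones that bind unfolded proteins. The inducible members are switched on by heat shock factor under stress, while their constitutive cognates are made in all cells. Of 29 genes in the heat shock list 23 passed the filter on low values. Of these, 5 fell with 6 libraries (0.135% of all tested genes fell) and 6 fell without replicate 3 (0.751% of all). None rose, and 13 lay below all controls in either set of libraries. The falls include Hsp70Ab, Hsp70Ba and Hsp70Bb, and without replicate 3 also Hsp70Aa. These are near-identical copies, so they do not count as separate measurements. The background share of genes below all controls was 9.94% with 6 libraries and 22.3% without replicate 3. The list median was -0.50 with 6 libraries and -0.54 without replicate 3.

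Hsp70Ab, a copy of the main inducible chaperone gene, had 281, 265 and 292 in the controls and 106, 118 and 114 in the labelled libraries. It was low by about the same amount in each labelled library. On the log2 scale Hsp70Ab differed by -1.30 (SE 0.11, limma adjusted p = 0.00303), and this gene was called whichever of the 6 libraries was left out, with an adjusted p of 0.0132 to 0.0395. The other called heat shock genes were less stable. Hsp68, Hsp26 and Hsp70Bb kept the call in 2 of the 6 leave-outs and Hsp70Ba in 1, with adjusted p-values of limma up to 0.166, 0.248, 0.289 and 0.298. Hsp68, another inducible member of the Hsp70 family, had 163, 166 and 175 in the controls and 83.6, 72.6 and 62.8 in the labelled libraries (log2 fold change -1.20, SE 0.13, limma adjusted p = 0.0153). Hsp26, which encodes a small heat shock protein, had 203, 220.5 and 179 against 106, 98.4 and 105 (-0.95, SE 0.12, limma adjusted p = 0.0257). For Hsp68 replicate 3 was the lowest labelled library, and for Hsp26 it lay between the others.

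The Hsp70 genes are near-identical copies, and how reads were divided among them is uncertain. Hsp70Bb had 261, 256 and 156 in the controls and 69.5, 64.5 and 77.7 in the labelled libraries (log2 fold change -1.62, SE 0.20, limma adjusted p = 0.0257). Hsp70Ba had 24.8, 24.3 and 17.3 against 5.05, 5.79 and 3.16 (-2.04, SE 0.26, limma adjusted p = 0.0278). Hsp70Aa had 71.3, 81.7 and 90.8 against 21.1, 27.2 and 2.18, and was called only without replicate 3 (-1.71, SE 0.18, limma adjusted p = 0.0223), since replicate 3 lay far below the other labelled libraries and widened the spread. Hsp70Bbb (-0.47, SE 0.28) and Hsp70Bc (-1.55, SE 0.74) were not called. The sum over the 6 copies, which does not depend on that division, was 690.0, 687 and 708 in the controls and 245, 273 and 239 in the labelled libraries. The groups do not overlap, and the control mean was 2.75 times the mean of the labelled libraries.

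The remaining heat shock genes did not pass the test with 6 libraries. The largest difference among those outside the Hsp70 copies was that of Hsp67Bc, a gene at a low level, with 1.82, 5.24 and 1.98 in the controls and 0.928, 1.61 and 0 in the labelled libraries (log2 fold change -1.13, SE 0.50, limma adjusted p = 0.477). The small heat shock gene Hsp27 had 106, 95.8 and 118 in the controls and 58.9, 44.6 and 67.0 in the labelled libraries (log2 fold change -0.91, SE 0.17, limma adjusted p = 0.134). The constitutive cytosolic chaperone gene Hsc70-4 had 3746, 3789 and 4799.6 against 2772, 2818 and 2423 (-0.62, SE 0.15, limma adjusted p = 0.232). Its endoplasmic reticulum counterpart Hsc70-3 (BiP) had 683, 807 and 977 against 490.3, 513 and 604 (-0.61, SE 0.15, limma adjusted p = 0.248). Hsp27, Hsc70-4 and Hsc70-3 lay below all controls in all 3 labelled libraries. Hsp83, the Hsp90 gene, had 3041, 3036 and 3825 against 2832, 3149 and 2729 (-0.18, SE 0.14), and its groups overlapped.

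Among translation factors, 1 of 50 tested members fell with 6 libraries and 3 without replicate 3, against 0.135% and 0.751% of all tested genes, and none rose. The list median was -0.12 and -0.08. Cytoplasmic poly(A)-binding protein coats the tails of mRNAs and promotes their translation. Its gene pAbp had 1752, 1741 and 1720.3 in the controls and 427, 531 and 792 in the labelled libraries. The controls lay close together, and replicate 3 was the highest of the labelled libraries. The difference was -1.62 on the log2 scale with 6 libraries (SE 0.20, limma adjusted p = 0.0257) and -1.87 without replicate 3 (SE 0.14, limma adjusted p = 0.00878). Leaving out any other library ended the call of pAbp, with adjusted p-values up to 0.289. Syp, which encodes the RNA-binding protein Syncrip, had 48.4, 50.6 and 46.1 against 8.25, 14.7 and 17.8 (-1.82, SE 0.26, limma adjusted p = 0.048). Drat had 221, 224 and 246 against 122, 104 and 119 (-0.997, SE 0.12, limma adjusted p = 0.0199). Syp kept the call in 2 of the 6 leave-outs, with an adjusted p of limma up to 0.394, and Drat in 1, with an adjusted p up to 0.172.

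**Figure D2:**
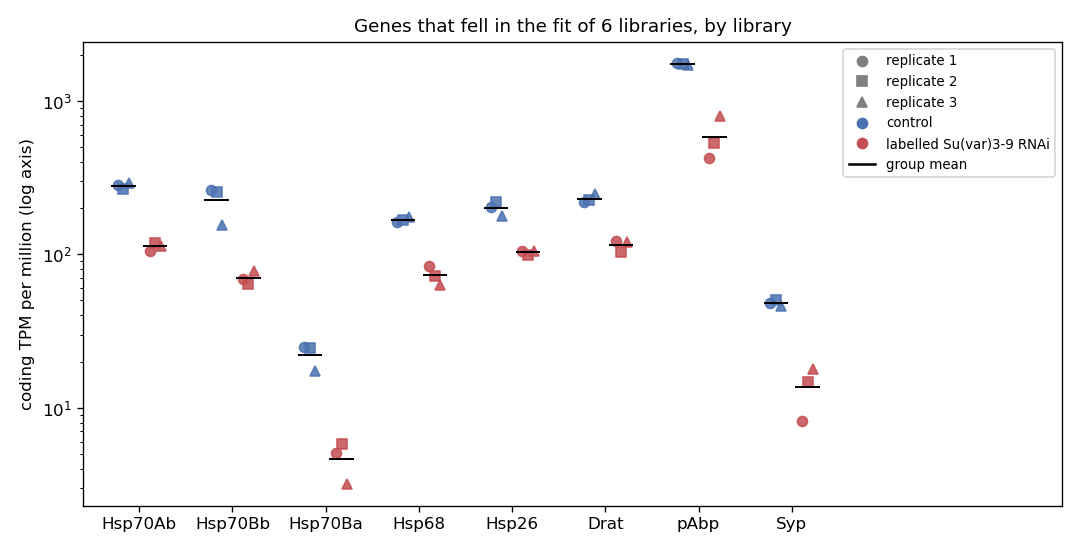
Rescaled TPM (log axis) in each library for 8 genes that fell with 6 libraries, with a mark for each replicate and a line for the group mean. In all 8 the groups do not overlap. Replicate 3 of the labelled group (red triangle) lies with the other labelled libraries in Hsp70Ab, Hsp26 and Drat, and above them in pAbp (792 against 427 and 531) and Syp.

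The other 3 of the 11 falls rest on very short genes. CG41267 (14.01, 27.7 and 18.4 in the controls), l(3)neo43 (9.71, 25.3 and 16.5) and CG41138 (9.38, 6.34 and 8.59) are 251, 231 and 282 bases long in the table, and each was listed at 0 in all 3 labelled libraries. An exact 0 in an estimated abundance need not mean absence, so no fold is given. Over the 89 tested genes of up to 350 bases the median log2 fold change was -0.42 with 6 libraries and -0.27 without replicate 3. In replicate 3 alone their median difference from the controls was -0.60, the lowest of the 6 libraries. Left to genes of at least 350 bases, the test called 8 genes with 6 libraries, 1 higher and 7 lower.

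Without Su(var)3-9 RNAi replicate 3 the count of called genes rose from 12 to 64 (0.788%), 3 higher (0.0369%) and 61 lower (0.751%), and all 12 genes called with 6 libraries were among them. All 64 lay wholly above or wholly below the controls. This larger set rests on few libraries. Left with 4 libraries, the test called 0 genes without control replicate 2 (823 at an unadjusted p under 0.05), 1 without control replicate 1, 1 without Su(var)3-9 RNAi replicate 1, 1 without Su(var)3-9 RNAi replicate 2 and 77 without control replicate 3. The median over all tested genes was -0.06, and 1135 genes had an unadjusted p under 0.05, 174 higher (2.14%) and 961 lower (11.8%). Groups did not overlap for 842 genes above all controls (10.4%) and 1812 below (22.3%).

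The 61 falls had a median log2 fold change of -1.63 in replicates 1 and 2. For the same genes the median difference of replicate 3 from the control mean was -0.49 on the log2 scale. Replicate 3 lay below all controls in 52 of the 61 genes, inside the control range in 9 and above all controls in 0. The same controls served to choose these genes, so the counts are a description. The matching shares over all tested genes were not computed. Among the 6 heat shock genes of this set replicate 3 was the lowest labelled library in Hsp68, Hsp70Aa and Hsp70Ba.

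**Figure D3:**
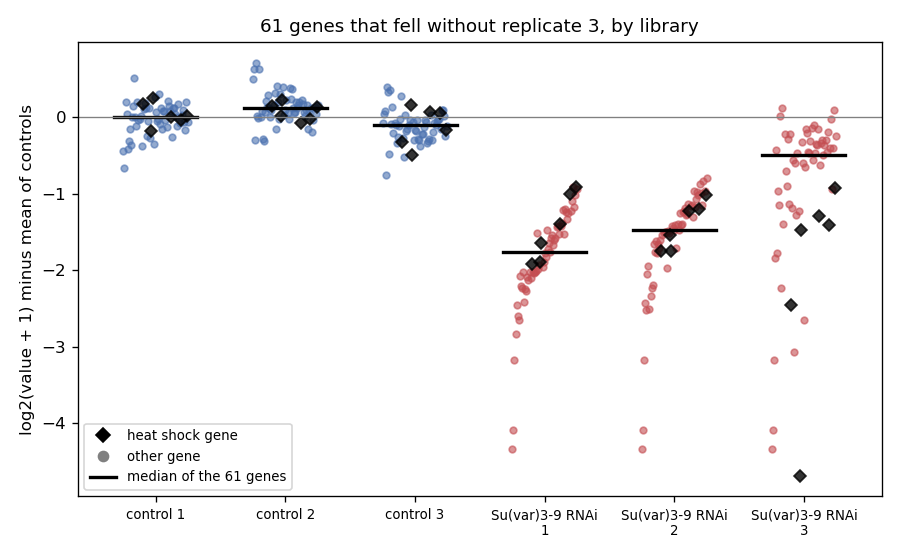
Difference of log2(value + 1) from the mean of the controls for the 61 genes that fell without replicate 3, by library. Each point is a gene, black diamonds are heat shock genes and bars are medians. The genes were chosen on replicates 1 and 2 against the same controls, so the low position there is a description. The position of replicate 3 is measured from those controls too. The median in replicate 3 is -0.49.

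RNA-binding genes were among those called only without replicate 3. Unr encodes a cold shock domain protein that represses translation of msl-2 mRNA in females. It had 28.3, 45.5 and 15.8 in the controls and 2.99, 4.27 and 6.95 in the labelled libraries. The labelled libraries were all below the controls, which themselves spread widely, and it differed by -2.63 on the log2 scale (SE 0.42, limma adjusted p = 0.049). eIF4H1, whose product assists the helicase eIF4A, had 173, 157 and 148 against 39.5, 56.0 and 115.1 (-1.74, SE 0.18, limma adjusted p = 0.0223).

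In the list of spliceosome and SR protein genes 2 of 41 members fell without replicate 3, against 0.751% of all tested genes, both of them hnRNP genes, and the list median was -0.06. Hrb27C had 416, 407 and 359 in the controls and 122, 167 and 268 in the labelled libraries (log2 fold change -1.45, SE 0.16, limma adjusted p = 0.0261). sqd had 465, 502 and 359 against 152, 199 and 393 (-1.33, SE 0.19, limma adjusted p = 0.0378), with replicate 3 inside the control range. The nuclear poly(A)-binding protein gene Pabp2, which is in neither list and was named after its values were seen, had 191, 153 and 168 against 67.1, 85.9 and 123 (-1.15, SE 0.16, limma adjusted p = 0.0378). The snRNP ring gene LSm7, by contrast, had 168, 144 and 146 against 198, 188 and 216, a difference that was not called (log2 fold change without replicate 3 0.34, SE 0.13, limma adjusted p = 0.298).

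In the lists of MAPK, insulin and TOR signalling, of G1 and S phase regulators and of the cytoskeleton, 1 or 2 members fell without replicate 3. Over all tested genes 0.751% fell, and no member of these lists fell with 6 libraries. The lists of Toll and JAK-STAT, of Imd and of mitosis and centromere genes had no called member in either fit. The insulin receptor gene InR, 1 of 27 members of the MAPK, insulin and TOR list, had 21.5, 26.2 and 19.6 in the controls and 5.57, 7.78 and 13.8 in the labelled libraries (log2 fold change -1.62, SE 0.23, limma adjusted p = 0.0386). Mnt, whose product opposes Myc, was 1 of 18 in the list of G1 and S phase regulators, with 24.1, 25.0 and 18.2 against 4.74, 7.02 and 9.20 (-1.78, SE 0.25, limma adjusted p = 0.0378). Myc itself had 22.3, 44.3 and 17.8 against 8.66, 8.44 and 19.7 and was not called (-1.50, SE 0.37, limma adjusted p = 0.131). In the cytoskeleton list 2 of 28 fell. These were Msp300, which encodes a nesprin linking nucleus and actin, with 65.8, 111 and 80.6 against 20.9, 30.7 and 66.9 (-1.68, SE 0.26, limma adjusted p = 0.0471), and the ERM protein gene Moe, with 258, 318 and 293 against 127, 161 and 218 (-1.01, SE 0.16, limma adjusted p = 0.0477). The tubulin gene betaTub60D had 129.8, 163 and 164 against 81.8, 91.4 and 91.1 and missed the threshold both with 6 libraries (-0.78, SE 0.13, limma adjusted p = 0.0998) and without replicate 3.

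Trf2, which encodes a TBP-related core promoter factor, was among the 10 largest falls, with 33.7, 58.6 and 26.7 in the controls and 5.16, 9.01 and 18.7 in the labelled libraries (log2 fold change without replicate 3 -2.30, SE 0.36, limma adjusted p = 0.0496). The other called falls of this paragraph were named after their values were seen. Cam, the calmodulin gene, had 889, 708 and 594 against 218, 273 and 628, so replicate 3 was at the control level (-1.56, SE 0.20, limma adjusted p = 0.0341). The catalytic and a regulatory subunit gene of protein kinase A fell by like amounts, Pka-C1 by 1.38 and Pka-R2 by 1.25 on the log2 scale (SE 0.19 and 0.18). The G protein subunit genes Galphao and Gbeta13F fell by 1.67 and 1.25 on the log2 scale (SE 0.25 and 0.18). The transcription regulator genes emc, chinmo and lola fell by 1.35, 1.49 and 0.87 on the log2 scale (SE 0.19, 0.24 and 0.13). For emc replicate 3 stood at 158, just below the lowest control of 159.

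RpS10a was the only member of the 87 tested cytosolic ribosomal protein genes to be called without replicate 3, where 0.751% of all tested genes fell, and none was called with 6 libraries. It had 8.93, 9.46 and 8.26 in the controls and 1.13, 0.948 and 8.99 in the labelled libraries (log2 fold change without replicate 3 -2.27, SE 0.26, limma adjusted p = 0.0266). Replicate 3 was inside the control range, and the list median was -0.01 with 6 libraries and 0.05 without replicate 3. The remaining members of the 10 largest falls without replicate 3, apart from the short genes above, were at low levels. CG13563 had 7.36, 9.28 and 12.02 against 0.722, 1.52 and 2.04. CG2865 had 19.4, 25.4 and 32.7 against 5.26, 3.604 and 10.9. t-cup had 6.52, 9.19 and 12.2 against 0.825, 0.759 and 6.46, and CG4783 had 4.17, 2.85 and 4.16 against 0 in all 3 labelled libraries.

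Rises were rare in both sets of libraries. Sirup, whose product is an assembly factor of mitochondrial succinate dehydrogenase, had 129, 125 and 105 in the controls and 222, 248 and 203 in the labelled libraries. All 3 labelled libraries were above all controls, and the difference was 0.97 on the log2 scale without replicate 3 (SE 0.14, limma adjusted p = 0.0386) and 0.90 with it (SE 0.13, limma adjusted p = 0.0546). The other called rise, His2B:CG33910, is 1 of many near-identical histone gene copies and was listed at 0 in the 3 controls and in replicate 3 and at 6.497 and 5.88 in replicates 1 and 2, so its value is uncertain and no fold is given. The 71 mitochondrial ribosomal protein genes had the highest list median, 0.14 with 6 libraries and 0.20 without replicate 3, and none was called. With the deposited TPM, before rescaling, the median with 6 libraries was -0.11. By library their median difference from the controls was 0.20, 0.14 and 0.02 in Su(var)3-9 RNAi replicates 1 to 3 and -0.04 to 0.09 in the controls.

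Most function lists had no called member. Of 45 lists, 7 had a called member with or without replicate 3, and 2 with all 6 libraries. The lists of glycolysis, tricarboxylic acid cycle, oxidative phosphorylation, proteasome, aminoacyl-tRNA synthetases, DNA replication, repair, mitosis, RNA polymerase II, Golgi traffic, nuclear pore, cohesin, insulator proteins, autophagy and fatty acid synthesis held medians between -0.10 and 0.12, with and without replicate 3. Of 25 tested genes of H3K9 methylation and heterochromatin factors, a list that leaves out the target, none was called, and the median was -0.06 in both sets. The lowest was wde, cofactor of the methyltransferase egg, with 27.9, 32.4 and 25.7 in the controls and 10.5, 13.8 and 22.4 in the labelled libraries (log2 fold change without replicate 3 -1.18, SE 0.20, limma adjusted p = 0.0623). Su(var)2-10, a SUMO ligase gene, had 55.1, 53.7 and 53.7 against 62.9, 66.01 and 76.7 (0.33 with 6 libraries, SE 0.13, limma adjusted p = 0.425).

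Genes long known to lie in pericentromeric heterochromatin had a low median without replicate 3, but none was called. Of 32 in the list 20 were tested, and their median was -0.26 with 6 libraries and -0.56 without replicate 3. The nuclear receptor list had -0.44 and -0.56 and the heat shock list -0.50 and -0.54, so without replicate 3 these lists lay close together. Below all controls were 0 of the 20 with 6 libraries and 9 without replicate 3, where the background share was 22.3%. By library the median difference from the controls was -0.66 and -0.47 in labelled replicates 1 and 2 but 0.32 in labelled replicate 3. It was 0.30, 0.28 and -0.54 in control replicates 1 to 3. Control replicate 3 thus lay with labelled replicates 1 and 2, and labelled replicate 3 lay with control replicates 1 and 2. Nipped-A, the gene of a subunit shared by the SAGA and Tip60 acetyltransferase complexes, had 146, 128 and 78.4 against 23.8, 44.6 and 108 (log2 fold change without replicate 3 -1.77, SE 0.33, limma adjusted p = 0.0779). The cohesin loader gene Nipped-B had 51.3, 69.6 and 29.8 against 9.901, 16.9 and 42.0 (-1.80, SE 0.37, limma adjusted p = 0.0955). The same order of libraries held on chromosome 4, which is rich in heterochromatin. Its 64 tested genes had a median of -0.23 with 6 libraries and -0.44 without replicate 3, with -0.59, -0.30 and 0.33 in Su(var)3-9 RNAi replicates 1 to 3 and 0.26, 0.17 and -0.49 in the controls. On the long arms and X the medians lay between -0.02 and -0.08 with 6 libraries and between -0.05 and -0.10 without replicate 3.

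The 14 tested nuclear receptor and ecdysone response genes had a median of -0.44 with 6 libraries and -0.56 without replicate 3, with none called. Below all controls were 2 of the 14 with 6 libraries and 8 without replicate 3, where the shares over all tested genes were 9.94% and 22.3%. The methionine sulfoxide reductase gene MsrA, which ecdysone induces, had 233, 238 and 293 in the controls and 161, 148 and 177 in the labelled libraries (log2 fold change -0.65 with 6 libraries, SE 0.13, limma adjusted p = 0.179). The nuclear receptor genes ftz-f1 (16.2, 27.4 and 23.0 against 6.497, 9.29 and 20.996) and Eip75B (21.8, 38.04 and 17.6 against 7.01, 9.96 and 20.3) were low in replicates 1 and 2 and inside the control range in replicate 3. For the 29 Polycomb and trithorax genes the median was -0.15 and -0.28, and for the 20 basement membrane and matrix genes it was -0.21 and -0.32, with none called in either list.

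Oxidative stress and glutathione genes, by contrast, had a median that was as low with replicate 3 (-0.23) as without it (-0.19), over 20 tested genes of which none was called. The list median was -0.13, -0.24 and -0.37 in Su(var)3-9 RNAi replicates 1 to 3. The glutathione S-transferase gene GstD1 had 479, 465 and 526 in the controls and 367, 352 and 315 in the labelled libraries (log2 fold change with 6 libraries -0.51, SE 0.11, limma adjusted p = 0.217). The Nrf2 homologue gene cnc had 33.2, 36.5 and 29.8 against 16.7, 19.4 and 25.1 (-0.69 with 6 libraries, SE 0.19, limma adjusted p = 0.267). Of 31 tested genes of ER chaperones and the unfolded protein response none was called, and the median was -0.07 in both sets. The study names heat shock proteins among its examples of lower genes over both knockdowns, and those called here are in the heat shock list. Of 12 other genes that it names in its text none was called here, where the test differs from that of the study. The lowest was the lamin gene LamC with 15.0, 21.5 and 27.5 against 9.38, 10.1 and 13.8 (-0.87 with 6 libraries, SE 0.26, limma adjusted p = 0.304).

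**Figure D4:**
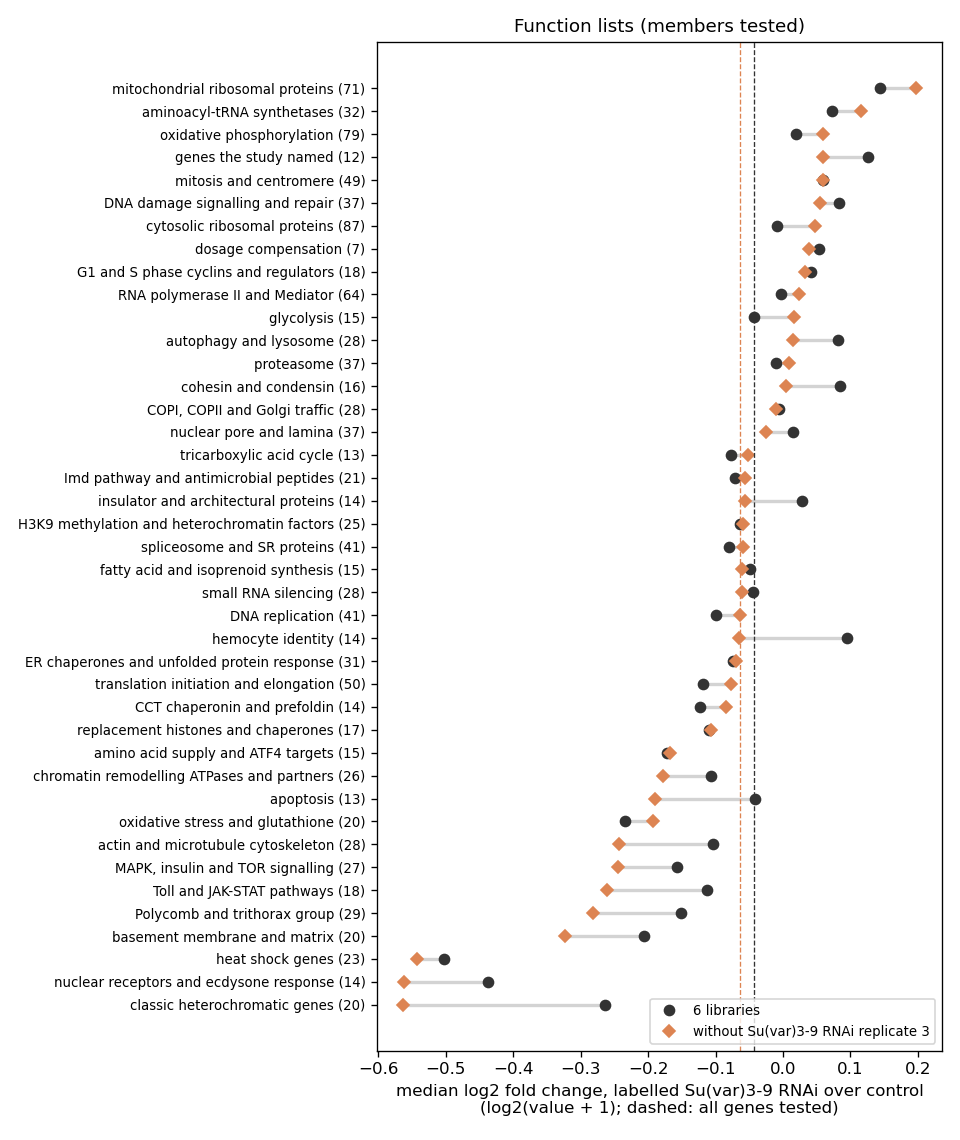
Median log2 fold change of each function list with at least 7 tested members, with all 6 libraries (black) and without Su(var)3-9 RNAi replicate 3 (orange). Dashed lines are the medians of all tested genes, -0.04 and -0.06. Heat shock genes are low in both sets (-0.50 and -0.54), while classic heterochromatic genes move from -0.26 to -0.56.

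A feature that the test did not use was more frequent among the genes that fell without replicate 3, though not common to all of them. It is a long 3′ UTR, the stretch of mRNA after the stop codon. In the later annotation a length (the longest of the gene) was found for 7955 of the 8126 tested genes (97.9%) and for 59 of the 61 falls. Its median was 1803 bases among the falls and 288 bases among all tested genes, while the median coding length was 1455 and 1365 bases. Of the 61 falls 32 had a 3′ UTR over 1600 bases, as did 9.38% of all genes with a value. Among the 746 genes with so long a 3′ UTR 4.29% fell, against 0.375% of the 7209 genes with a shorter one. Examples are Hrb27C (6602 bases), Cam (5015 bases) and Syp (4604 bases). The falling Hsp70 genes, by contrast, have 3′ UTRs of 179 to 198 bases.

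The difference followed 3′ UTR length over all genes, and among the labelled libraries it was seen in replicates 1 and 2. Over the 746 genes the median log2 fold change was -0.33 with 6 libraries and -0.51 without replicate 3, against 0.02 and 0.00 for the 1577 genes with 201 to 400 bases. Their median difference from the controls was -0.60 and -0.42 in replicates 1 and 2 and 0.05 in replicate 3. It was -0.04, 0.21 and -0.16 in control replicates 1 to 3, so the controls also spread along it. Within coding lengths of 1001 to 2000 bases the median without replicate 3 was -0.45 for 202 genes with a 3′ UTR over 1600 bases and -0.02 for 2659 genes with a shorter one. For coding lengths up to 1000 bases these medians were -0.21 (94 genes) and 0.03 (2586 genes). Above 2000 bases they were -0.57 (450 genes) and -0.14 (1964 genes). The difference also followed the whole length listed for a gene. Without replicate 3 the median was -0.32 for 1020 genes over 4000 bases and 0.02 for 2863 genes of 1001 to 2000 bases. Left to genes with a 3′ UTR of at most 1600 bases, the test called 7 genes with 6 libraries, none higher, and 20 without replicate 3, 1 higher and 19 lower. CG6476 has no value and is not among them. The part of 3′ UTR length, of whole length, and of what differs between the libraries along them, in the falls was not tested.

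**Figure D5:**
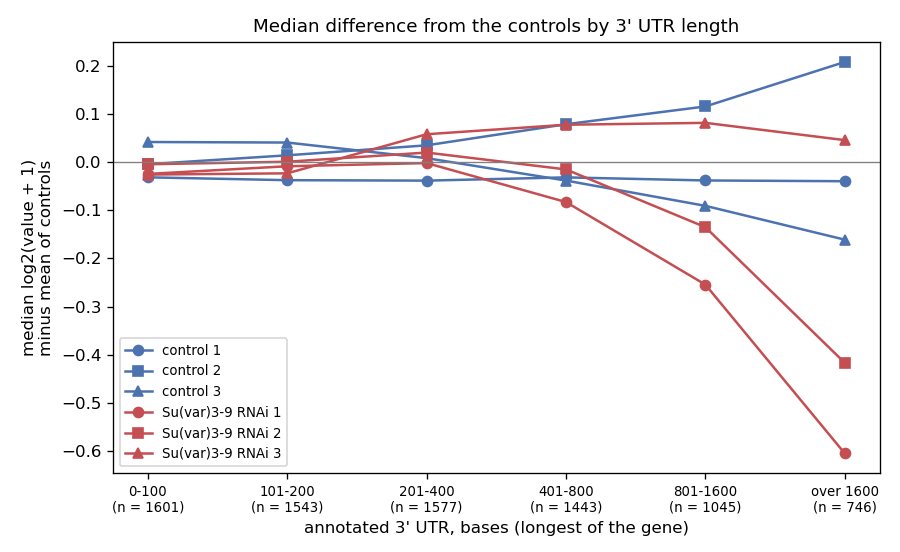
Median difference of log2(value + 1) from the mean of the controls by class of annotated 3′ UTR length, 1 line for each library (controls blue, labelled libraries red). In the class over 1600 bases Su(var)3-9 RNAi replicates 1 and 2 lie at -0.60 and -0.42, replicate 3 at 0.05 and the controls between -0.16 and 0.21.

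By level, the tested genes with the lowest means, a set of 2709, had a median of -0.18 with 6 libraries and -0.25 without replicate 3, and the middle and highest sets had medians between -0.04 and -0.01. The 13 genes of the mitochondrial genome had a median of 0.66 with 6 libraries and 0.40 without replicate 3, with none called. By library their median was -1.10 in control replicate 3, 0.66 and 0.38 in the other controls, and 0.00, 0.68 and 1.14 in Su(var)3-9 RNAi replicates 1 to 3, so the controls spread as widely as the groups differ. Markers of other cell types did not exceed 19.1 in any library, and some moved with the labels. The summed level of 8 neuron markers was 7.92 to 10.9 in the controls and 3.3, 3.22 and 8.57 in the labelled libraries, most of it elav, and that of 10 muscle markers was 3.43 to 4.78 and 1.86 to 1.90. That of 7 germline and ovary markers was 29.3 to 35.4 and 21.9 to 24.7, and the 3 tested among them had a median log2 fold change of -0.44 with 6 libraries and -0.41 without replicate 3. The germline gene osk had 6.45, 7.26 and 6.41 in the controls and 2.27, 2.94 and 2.46 in the labelled libraries, and was not called. The sum of 7 fat body markers overlapped between the groups, with 0.717 to 3.50 and 1.04 to 3.86. Their part in the results was not tested.

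At the level of transcripts 6 of 11382 were called with 6 libraries (0.0527%), 2 higher and 4 lower, and without replicate 3 only CG6476-RA was called (0.00879%). Beside CG6476-RA these were the single transcripts of Hsp70Ab and CG41267, Nipsnap transcript RC, and an exchange between transcripts of mxt, which encodes an eIF4E-binding translation factor. Nipsnap RC had 12.6, 10.6 and 16.4 in the controls and was listed at 0 in all labelled libraries. Nipsnap RB, which was not called, had 8.73, 0 and 0 in the controls and 16.6, 17.3 and 9.76 in the labelled libraries. For Nipsnap as a whole the log2 fold change was 0.24 (SE 0.23), so the fall of RC is not a fall of the gene. How reads were divided among its transcripts is an estimate. CG2950-RB of mxt had 18.7, 20.8 and 19.7 in the controls and was listed at 0 in the 3 labelled libraries, while CG2950-RA was listed at 0 in the 3 controls and had 22.6, 22.2 and 17.1 in the labelled libraries. For mxt as a whole the values were 20.3, 22.0 and 21.3 against 22.6, 22.2 and 17.1 (log2 fold change -0.05, SE 0.18). The annotated lengths of mxt RA and RB are 2328 and 2322 bases. Their sequences were not compared, and the division of reads between them is an estimate, so the exchange is uncertain.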

How the data were processed

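Total RNA of S2 cells was sequenced in 3 control and 3 Su(var)3-9 RNAi libraries. Per the labels, the authors' processing used bcl2fastq, cutadapt, STAR and RSEM on the dm3 genome. The values deposited by the authors are TPM per gene and per transcript, with a length in bases. TPM keep no depth, so the precision that depth gives is unknown. Tables of the authors' own comparisons hold posterior probabilities and fold changes and were not used.

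Identifiers starting with CG were kept, each library was rescaled to 1000000 over them, and genes with a mean of at least 1 were tested with limma 3.58.1 in R 4.3.3 on log2(value + 1), with a mean-dependent prior (trend), two-sided, at a Benjamini-Hochberg adjusted p under 0.05. Fold changes are on that scale, which understates the change of low genes. The fit was repeated without Su(var)3-9 RNAi replicate 3 on the same genes. The test was first run on simulated data with known changes. The design of the study used counts, which were not used here.

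Symbols were looked up in a later RefSeq release, and 3′ UTR lengths were taken from the BDGP6 annotation, which is also later than dm3, so no coordinates are given. Function lists were described by counts and medians without a test. The members and lists were chosen with earlier results of these data known. Named genes were the target, in each fit the 10 called genes that rose most and the 10 that fell most, up to 4 members of each list with the largest absolute moderated t in each fit, and the genes the study named. Genes named after their values were seen are marked.

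Alternatives were unfiltered genes, a minimum mean of 10, a smaller pseudocount (0.1), deposited TPM without rescaling, median-ratio size factors, quantile normalization, no trend, array weights, all 9 libraries in 1 fit, a replicate block and leaving out each library. The same-numbered libraries of both groups did not deviate together.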

Additional observations from a re-analysis of the deposited data

How the results depend on the processing

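The log2 fold change of CG6476 stayed between 3.46 and 3.93 and past the threshold under every alternative run for it. The count of genes called by limma with 6 libraries (12) became 178 with deposited TPM (11 higher, 167 lower), 369 with array weights (51 higher, 318 lower), 35 with all libraries of the series in 1 fit, and 7 with genes of a 3′ UTR of at most 1600 bases, an alternative chosen after seeing the data. It was 4 to 64 with a library left out and 8 to 13 under the other alternatives except the replicate block, given below. Without Su(var)3-9 RNAi replicate 3 the count (64) became 16 with no filter, 986 with deposited TPM (9 higher, 977 lower), 25 with quantile normalization, 7 without the trend, 259 with array weights, 274 with all libraries in 1 fit and 20 with genes of a 3′ UTR of at most 1600 bases. It was 0 to 77 with a further library left out and 47 to 83 under the others except the block. The count of transcripts (6) became 2 with no filter, 2 with a mean of at least 10, 17 without the trend, 15 with array weights and 15 with all libraries, and was 1 to 3 with a library left out and 4 to 5 under the others except the block. The causes were not tested. Deposited TPM moved the median of all tested genes to -0.21 with 6 libraries and -0.34 without replicate 3.

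The replicate numbers pair nothing that the labels name. Same-numbered libraries had correlated deviations of 0.02, -0.04 and -0.14, and not every library correlated best with its own number. With a replicate block 2 genes were called with 6 libraries, 204 without replicate 3, and 1 transcript. No gene listed for naming changed direction under an alternative. Of the 45 list medians with 6 libraries, 26 changed sign under at least 1 alternative, most of them medians near 0. Those of heat shock (-0.68 to -0.40), nuclear receptor (-0.60 to -0.21), classic heterochromatic (-0.61 to -0.05) and oxidative stress genes (-0.36 to -0.15) did not. Of the 12 genes called with 6 libraries, CG6476, CG41267 and Hsp70Ab were called whichever library was left out, l(3)neo43 in 5 of 6 leave-outs, CG41138 in 3, Hsp26, Hsp68, Hsp70Bb and Syp in 2, and Drat, Hsp70Ba and pAbp in 1. The adjusted p of pAbp reached 0.289 and that of Syp 0.394.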
